A study of Mus musculus with 6 samples.

Results

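The collagen genes of the mouse pancreatic bud were taken as the protein-coding genes of the count table whose symbol starts with Col and a digit. This rule matched 45 of the 54532 genes, of which 22046 are protein-coding. A total of 44 encode collagen chains. The 45th, Col4a3bp, encodes a ceramide transfer protein named for its reported binding to a type IV chain, and it was set aside from every count (mean 9.06 FPKM, log2 fold change 0.08). The 44 chains fall into 11 fibrillar collagens, 8 basement membrane collagens (6 chains of type IV with Col15a1 and Col18a1) and 25 others. All 6 libraries came from buds of the embryonic pancreas taken at E12.5 (embryonic day) and kept for 2 days in M199 medium with 10% fetal bovine serum and 0.1% DMSO. The 3 Control libraries had DMSO alone, and the 3 TBZ libraries had 0.1 µM tetrabenazine (TBZ) throughout, an inhibitor of VMAT2, the transporter that loads monoamines into vesicles. The study addressed the part that VMAT2 and monoamines play in pancreatic development. The labels give no strain, litter or number of buds per library, so the p-values reflect only how much these libraries vary, which may in part be technical variation.

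Collagen levels were spread widely, 4 of the 44 chains averaging 100 FPKM or more and 25 below 10, and no collagen gene passed the test for a difference between TBZ and Control. Col1a1 and Col3a1, which encode the main fibrillar chains of loose connective tissue, averaged 322 and 234 FPKM (fragments per kilobase of gene and per unit of sequencing depth), and Col4a1, the main basement membrane chain, averaged 132 FPKM. Of the 43 collagens tested, 0 had an adjusted p under 0.05 by the edgeR quasi-likelihood test, where 0.187% of all 18226 tested genes were called (0.154% higher and 0.0329% lower in TBZ). DESeq2 also called 0, where it called 1.43% of genes, and edgeR with no filter on low counts called 3, where it called 1.42% of genes. At an unadjusted p under 0.05 there were 12 collagens (27.9%), against 9.61% of all tested genes. The 44 genes together took 1.16 ± 0.0742% of counted reads in Control and 1.197 ± 0.0782% in TBZ (SD, n = 3 each). The buds are whole tissue, so for every value that follows, fewer cells of a type and less RNA per cell cannot be told apart.

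Collagens are extracellular proteins built from chains wound round each other into a helix, and every turn of the helix needs a glycine, so the helical part of each chain repeats the pattern glycine, X, Y, where X and Y are often proline and hydroxyproline. Fibrillar collagens pack side by side into the fibrils of connective tissue, made mostly by mesenchymal cells, while type IV collagen joins end to end into the sheet that underlies epithelia and surrounds vessels. The other collagens decorate fibrils, form beaded filaments or anchoring fibrils, or sit in the cell membrane. In the embryonic pancreas the branching epithelium rests on a basement membrane and is wrapped in mesenchyme.

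The genes of the 3 classes differ in their exons. A length of 54 bases fits 6 repeats of 9 bases, each with a glycine codon (GGN) and the codons for X and Y. Counted by length alone, exons of 54 bases made up 305 of the 627 internal coding exons of fibrillar genes (48.6%). They made up 16 of 361 in basement membrane genes (4.43%) and 148 of 929 in the others (15.9%). In all other protein-coding genes, where glycine codons were not looked for, they made up 0.444% (GENCODE M21, mm10). Of the 54-base exons of fibrillar genes, 302 of 305 began with a glycine codon and had one at each repeat, as did 14 of 16 in basement membrane genes. One such exon is shown for each of 5 chains whose levels are given below, because this repeat defines collagen chains. Capitals mark the glycine codon that opens each repeat (a glycine codon elsewhere in a repeat stays in lower case), and the letters run 5′ to 3′ on the coding strand, for coding exons at chr1:45325360-45325413 (plus strand, Col3a1), chr11:94939904-94939957 (plus, Col1a1), chr2:27965251-27965304 (plus, Col5a1), chr8:11245211-11245264 (minus, Col4a1) and chr2:180601582-180601635 (plus, Col9a3), all mm10.
Col3a1: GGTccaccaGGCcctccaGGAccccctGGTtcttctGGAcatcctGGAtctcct
Col1a1: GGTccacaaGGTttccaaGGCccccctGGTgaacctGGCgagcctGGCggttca
Col5a1: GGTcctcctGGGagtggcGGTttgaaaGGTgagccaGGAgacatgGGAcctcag
Col4a1: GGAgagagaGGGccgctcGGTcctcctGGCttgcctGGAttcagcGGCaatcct
Col9a3: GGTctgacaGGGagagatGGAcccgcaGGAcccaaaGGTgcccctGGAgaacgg

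All 5 exons open each repeat with a glycine codon, while the codons between them differ from gene to gene. The classes differ in how long the pattern runs without a break. The longest unbroken run of repeats had a median of 338 in fibrillar chains (216 to 344), of 41 in basement membrane chains (30 to 66) and of 52 in the others (23 to 113). Col1a1 and Col3a1 had runs of 338 and 344 repeats, whereas Col4a1 held its 439 repeats in 23 runs, the longest of 40. Col24a1 and Col27a1, the fibrillar chains with the shortest runs, had 216 and 217. Among the others, Col9a1, Col9a2 and Col9a3, which form 1 trimer that coats cartilage fibrils, each had a longest run of 113.

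**Figure D1:**
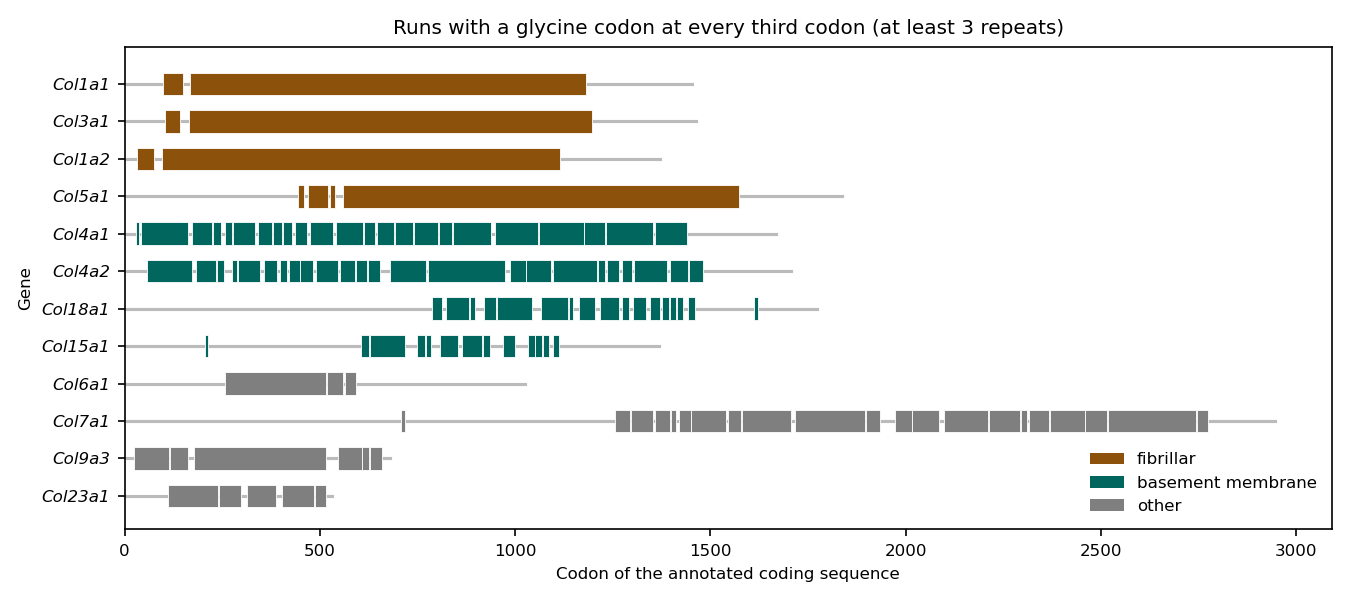
Position along the coding sequence (x axis, codon number) of unbroken runs of at least 3 repeats with a glycine codon at the start of each repeat, for 12 collagen genes (y axis), coloured by class. Thin lines are the whole coding sequence. The 4 fibrillar genes show 1 long block of 338 to 344 repeats, while Col4a1 and Col4a2 show 23 and 24 shorter runs.

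The libraries held 35825033 to 50620936 counted reads, and 18226 genes passed the filter on low counts, with a biological coefficient of variation of 8.30%. All 8 markers of pancreatic bud epithelium were detected, at a summed 694 to 779 FPKM in Control and 937 to 1054 FPKM in TBZ. The groups did not overlap in this sum, and all 8 log2 fold changes were positive, with a median of 0.33. Of the 8, edgeR called 1 and DESeq2 called 4, where they called 0.187% and 1.43% of genes. The first principal component (37.5% of the variance) set Control 3 at -25.4 apart from TBZ 1 and TBZ 3 at 14.4 and 14.6, with the other libraries at -2.88 to 0.33. Control 3 also had the highest summed level of the 8 stomach and oesophagus markers, at 105 FPKM against 51.4 to 82.3 in the other 5, with Tff1 at 0 in all 6. The 6 mesothelial markers likewise had their highest sum in Control 3, at 119 FPKM against 71.4 to 89.4 in the other 5. Among them Krt19 stood at 51.4 FPKM in Control 3 and at 22.4 to 25.7 in the other 5.

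Fibrillar collagens held 59.6 ± 0.776% of the summed collagen FPKM in Control and 58.6 ± 0.883% in TBZ (SD, n = 3 each). Col1a1 (chr11:94936224-94953042, mm10, plus strand), the major chain of type I, ranked 95 among all genes by mean level, Col3a1 (chr1:45311538-45349706, plus), the chain of type III, ranked 144, and Col1a2 (chr6:4504814-4541544, plus), the partner of Col1a1, ranked 285. Col1a1 stood at 308, 339.5 and 292 FPKM in Control 1 to 3 and 374, 311 and 305 FPKM in TBZ 1 to 3. TBZ 1 was the highest library and Control 3 the lowest, and the groups overlapped. The log2 fold change of TBZ over Control was 0.08 ± 0.08 (SE, edgeR), with a 95% interval of -0.11 to 0.26 and an adjusted p of 0.804.

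Col3a1 was measured at 219, 260.2 and 231 FPKM in Control 1 to 3 and 245, 224 and 225 FPKM in TBZ 1 to 3. Control 2 was the highest library, Control 1 the lowest, and all TBZ libraries fell inside the range of the controls. Its log2 fold change was -0.03 ± 0.06 (95% interval -0.17 to 0.11). Col1a2 stood at 115, 144 and 127 FPKM in Control 1 to 3 and 143, 128 and 126 FPKM in TBZ 1 to 3. Control 2 and TBZ 1 were alike and highest, and Control 1 was lowest, so that the spread lay within the groups. The log2 fold change of Col1a2 was 0.04 (95% interval -0.14 to 0.22). The intervals of these 3 chains, which hold 47.6% of collagen FPKM, leave room for folds between 0.886 and 1.196.

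Type V collagen starts fibrils and sets their width. Col5a1 (chr2:27886425-28039514, plus strand) stood at 85.8, 93.2 and 73.4 FPKM in Control 1 to 3 and 99.7, 86.7 and 88.7 FPKM in TBZ 1 to 3. The controls spanned a wider range than the TBZ libraries, Control 3 was the lowest of all and TBZ 1 the highest. On the log2 scale TBZ minus Control was 0.13 (95% interval -0.07 to 0.32, adjusted p = 0.680), and 0.04 without Control 3 or 0.06 without TBZ 1, and 2.50% of its exonic bases lie within genes annotated on the opposite strand. Its partner chain Col5a2 averaged 49.5 FPKM with a log2 fold change of -0.02. The last chain of the type, Col5a3, was far lower at 0.845, 0.936 and 1.16 FPKM in Control 1 to 3 and 1.40, 0.978 and 1.22 FPKM in TBZ 1 to 3. TBZ 1 and TBZ 3 were above every control and TBZ 2 was not. At 0.29 (95% interval -0.07 to 0.65) it had the largest positive log2 fold change of the fibrillar chains, with an adjusted p of 0.603, and it was 0.16 without TBZ 1.

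The cartilage-type fibrillar chains Col2a1, Col11a1 and Col11a2 were present at 7.64, 5.71 and 5.52 FPKM on average, with log2 fold changes of 0.07, 0.05 and 0.20. Col11a2 was at 0.01 without TBZ 3, its highest library. Col2a1 turned sign without Control 2 and without TBZ 3, and Col11a1 without Control 3 and without TBZ 1. The 8 cartilage markers summed to 4.16 to 5.46 FPKM in Control and 4.62 to 6.01 in TBZ, with Acan making up 72.0 to 83.6% of the sum. Of the 8, 4 averaged under 0.1 FPKM (Matn1, Cnmd, Snorc and Ucma), with Ucma at 0 in all 6 libraries. Col24a1 (chr3:145292472-145552011, plus strand), a minor fibrillar chain, was the one fibrillar gene with an unadjusted p under 0.05, 1 of 11 (9.09%), where 9.61% of all tested genes had one. It stood at 1.22, 1.26 and 1.21 FPKM in Control 1 to 3 and 1.07, 1.06 and 1.02 FPKM in TBZ 1 to 3. Every TBZ library lay below every control, with little spread inside each group. The log2 fold change was -0.23 ± 0.08 (unadjusted p = 0.0213, adjusted p = 0.415, DESeq2 adjusted p = 0.575), so it did not pass. Col27a1, its nearest relative, averaged 6.87 FPKM with a log2 fold change of -0.07.

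**Figure D2:**
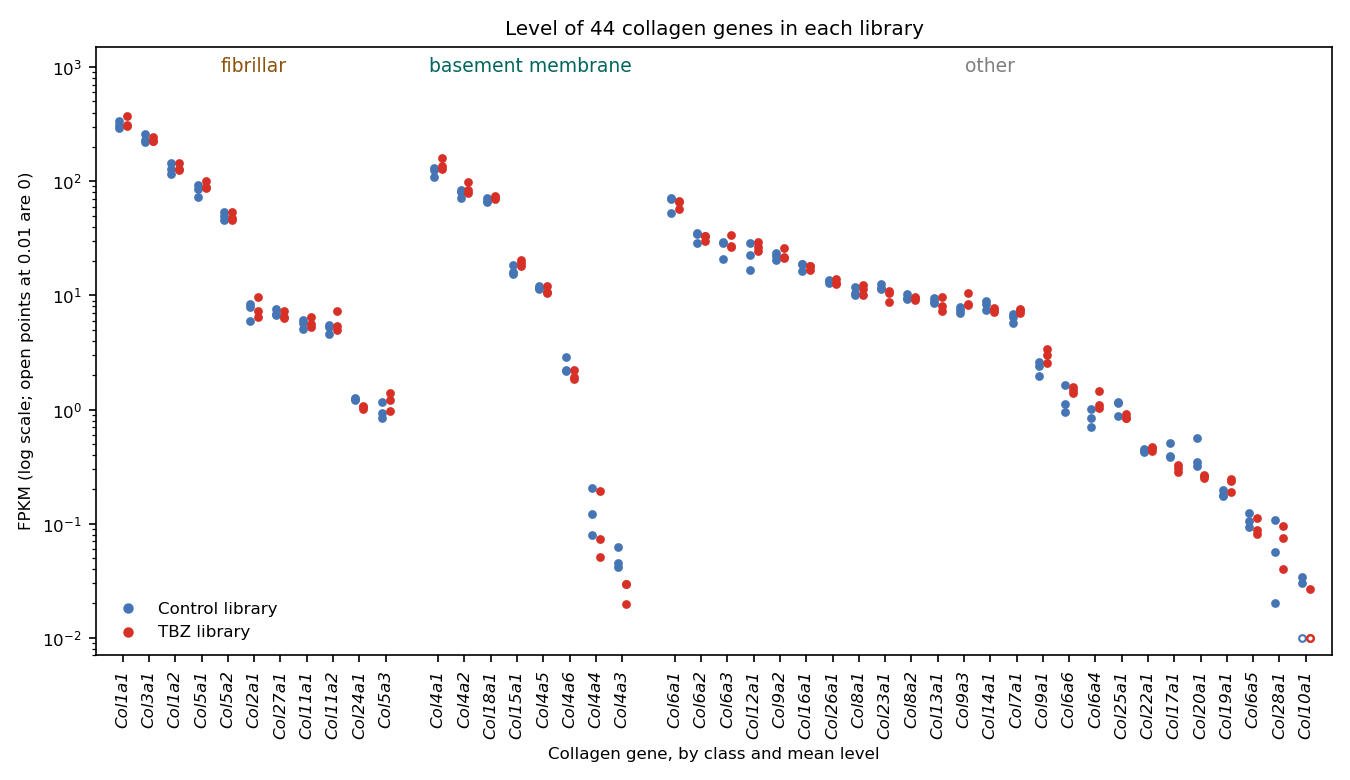
FPKM on a log axis (y) of the 44 collagen genes (x, by class and mean level) in each of 3 Control (blue) and 3 TBZ (red) libraries; open points at the foot stand for 0. Col1a1, Col3a1, Col4a1 and Col1a2 are at 100 FPKM or more, 15 genes lie at 10 to 100, 15 at 1 to 10 and 10 below 1 FPKM, and for most genes the blue and red points overlap.

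Basement membrane collagens held 21.3 ± 0.816% of summed collagen FPKM in Control and 22.6 ± 0.298% in TBZ (SD, n = 3 each). The share was 22.18, 20.65 and 20.93% in Control 1 to 3 and 22.80, 22.25 and 22.70% in TBZ 1 to 3. The groups did not overlap, but Control 1 and TBZ 2 were almost level, and by counted reads the shares were 17.8 to 19.1% and 19.2 to 19.7%. The share is a sum over listed genes and was given no test. Most of it is Col4a1 (chr8:11198423-11312826, minus strand) and Col4a2 (chr8:11312805-11449287, plus), the chains of the common type IV network, which made up 67.6% of the class.

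Col4a1 stood at 126, 132 and 109 FPKM in Control 1 to 3 and 161, 128 and 135 FPKM in TBZ 1 to 3. TBZ 1 was the highest and Control 3 the lowest, and TBZ 2 fell between Control 1 and Control 2. Its log2 fold change was 0.21 ± 0.09 (unadjusted p = 0.0501, adjusted p = 0.521), and it was 0.13 without Control 3 and 0.10 without TBZ 1. Col4a2 stood at 80.7, 83.5 and 70.8 FPKM in Control 1 to 3 and 98.6, 78.6 and 83.1 FPKM in TBZ 1 to 3. The order of libraries was much the same, with TBZ 1 on top and Control 3 at the foot. edgeR gave a log2 fold change of 0.15 (95% interval -0.05 to 0.35, adjusted p = 0.634), and it was 0.08 without Control 3 and 0.04 without TBZ 1. Endothelium, a cell type with its own basement membrane, had marker sums (8 genes, none under 0.1 FPKM) of 87.0 to 89.1 FPKM in Control and 88.2 to 96.4 in TBZ, and smooth muscle (7 genes, none under 0.1 FPKM) had 882 to 987 and 877 to 1220.2. Both sums were highest in TBZ 1. Most of the smooth muscle sum was Acta2 and Actg2, at 691 and 180 FPKM on average. Of the 7 smooth muscle markers 6 had positive log2 fold changes, while that of Myocd was -0.64 (edgeR adjusted p = 0.381). The most positive was that of Tagln, at 0.45 (edgeR adjusted p = 0.506). Acta2 stood at 873, 628 and 630 FPKM in TBZ 1 to 3 and at 630 to 698 FPKM in Control. The part of these cell types in the type IV values was not tested.

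Col18a1 (chr10:77052178-77166548, minus strand), whose end can be released as endostatin, stood at 67.5, 65.2 and 71.0 FPKM in Control 1 to 3 and 69.6, 72.6 and 74.3 FPKM in TBZ 1 to 3. TBZ 2 and TBZ 3 were above all controls, while TBZ 1 was below Control 3. TBZ over Control came to a log2 fold change of 0.09 (95% interval -0.01 to 0.19, adjusted p = 0.587). Col15a1 (chr4:47208161-47313167, plus strand), its relative, which links basement membranes to the fibrils below, stood at 16.0, 18.3 and 15.5 FPKM in Control 1 to 3 and 20.3, 18.1 and 19.3 FPKM in TBZ 1 to 3. The groups overlapped only through Control 2, which was just above TBZ 2. The log2 fold change was 0.21 ± 0.07 (95% interval 0.06 to 0.37, unadjusted p = 0.0130, adjusted p = 0.360). DESeq2 gave an adjusted p of 0.177, and edgeR with no filter gave 0.0449, which is under the threshold.

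The other 4 type IV chains were lower. Col4a5 and Col4a6, which form a network in smooth muscle and some epithelia, averaged 11.4 and 2.21 FPKM with log2 fold changes of -0.07 and -0.27 (adjusted p = 0.762 and 0.526). Control 3 was the highest library for Col4a6, whose log2 fold change without it was -0.13. Col4a3 and Col4a4, known from the glomerular basement membrane of the kidney, were at the edge of detection. Col4a3 was listed at 0.0449, 0.0414 and 0.0622 FPKM in Control 1 to 3 and 0.0298, 0.0295 and 0.0196 FPKM in TBZ 1 to 3, on 7 to 26 reads. All TBZ libraries lay below all controls. Its log2 fold change of -0.89 (95% interval -1.66 to -0.12, adjusted p = 0.453) was the most negative of all collagens, and 5.65% of its exonic bases are shared with a gene on the opposite strand. Col4a4 stood at 0.0803, 0.204 and 0.121 FPKM in Control 1 to 3 and 0.0512, 0.194 and 0.0736 FPKM in TBZ 1 to 3, on 22 to 110 reads, with the groups overlapping and a 95% interval of -1.45 to 0.76. Over the class 4 log2 fold changes were positive and 4 negative, with a median of 0.01, beside 0.00 for all tested genes and 0.05 for the fibrillar class. The 6 type IV chains alone had a median of -0.17, with the highly expressed pair positive and the other 4 negative.

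The type IV genes lie in pairs that start head to head. Col4a1 and Col4a2 overlap by 22 bases at their starts, and Col4a4 and Col4a3 are 71 bases apart, while 1308 bases separate Col4a6 from Col4a5 on chromosome X. Both short stretches are printed because each pair is read outwards from the same place. They are on the plus strand of GRCm38.p6 (mm10), at chr8:11312805-11312826 for the bases in both Col4a1 and Col4a2, and at chr1:82586850-82586920 for the bases between Col4a4 and Col4a3. Capitals mark the motif GGGCGG, known as the core of a GC box.
Col4a1 and Col4a2 shared start: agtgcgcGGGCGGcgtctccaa
between Col4a4 and Col4a3: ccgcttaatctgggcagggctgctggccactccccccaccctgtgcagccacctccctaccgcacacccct
The first stretch holds the motif and the second does not. The pair at the first stretch was among the most abundant of the collagens, and the pair at the second was near the limit of detection. The stretches differ in length (22 and 71 bases), and a link between the motif and the level of a gene was not tested. The 250 bases before the RefSeq start could be read for 38 starts of 35 collagen genes. GGGCGG, on either strand, was in 57.9% of these and in 32.7% of 32851 promoters of all genes, whose median GC content was 52.4% against 59.0% for collagens. TATAAA was in 13.2% and 12.4%, and CCAAT in 34.2% and 33.8%. TATAAA was in 2 of 8 starts of fibrillar genes (Col3a1 and Col11a2) and in 0 of 8 starts of 7 basement membrane genes. A match describes the letters and is not a measured binding site.

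Ratios between chains of 1 type were steady for some pairs and loose for others. Col4a1 over Col4a2 was 1.56, 1.58 and 1.53 in Control 1 to 3 and 1.63, 1.62 and 1.62 in TBZ 1 to 3. The highest ratio was 1.06 times the lowest, the narrowest of the listed pairs of chains of 1 type, and all 3 TBZ libraries were above the controls. Col6a1 over Col6a2 ranged from 1.83 to 2.03 in Control and from 1.92 to 2.01 in TBZ, and Col1a1 over Col1a2 from 2.30 to 2.68 and from 2.42 to 2.61. The size of such a ratio depends on the gene lengths used for FPKM, so it does not give the proportion of chains in a trimer. Col1a1 and Col1a2 were given lengths of 6563 and 12426 bases, while their coding sequences are 4359 and 4116 bases. Comparing 1 ratio between libraries is free of this limit. Col5a1 over Col5a2 was 1.59 to 1.75 in Control and 1.83 to 1.93 in TBZ, without overlap. Col4a5 over Col4a6 was 4.22 to 5.23 and 5.43 to 5.65, and Col9a2 over Col9a3 2.60 to 3.36 and 2.48 to 2.59, also without overlap. Col9a2 over Col9a1 was 8.51 to 11.9 and 7.22 to 8.45, the groups again apart. Of 11 listed pairs of chains of 1 type, which are not all such pairs, 5 had groups that did not overlap. The ratios of Col9a2 to Col9a3 and to Col9a1 share a chain. The other 6 had groups that did overlap, Col11a1 over Col11a2, Col8a1 over Col8a2 and Col4a3 over Col4a4 among them. The share over other gene pairs was not computed. With 3 against 3 libraries an exact two-sided permutation test cannot give a p below 0.1, so none is given for these ratios. Col6a1 over Col6a3 was the loosest ratio among the abundant pairs listed, at 1.83 to 3.29 in Control alone.

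**Figure D3:**
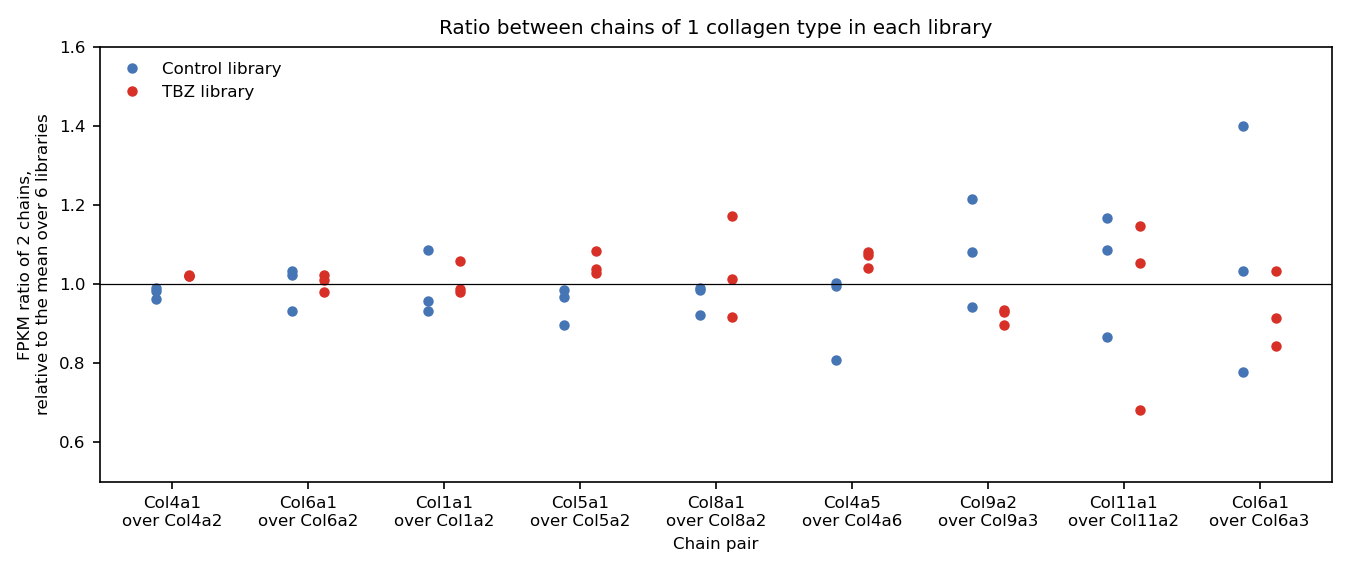
Ratio of FPKM of chain pairs of 1 collagen type (x axis) in each library, divided by the mean ratio over the 6 libraries (y axis, linear), for Control (blue) and TBZ (red). Points of Col4a1 over Col4a2 sit closest together and those of Col6a1 over Col6a3 spread the widest among controls.

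The other collagens made up 19.2 ± 0.365% of summed collagen FPKM in Control and 18.8 ± 0.914% in TBZ (SD, n = 3 each). Type VI, which forms beaded filaments around cells, led the group. Col6a1 (chr10:76708792-76726168, minus strand) stood at 52.8, 71.3 and 69.2 FPKM in Control 1 to 3 and 66.5, 57.1 and 66.2 FPKM in TBZ 1 to 3. Control 1 was the lowest library and Control 2 the highest, and the TBZ libraries fell between them. Col6a2 (chr10:76595762-76623630, minus) stood at 28.9, 35.2 and 34.4 FPKM in Control 1 to 3 and 33.1, 29.7 and 33.4 FPKM in TBZ 1 to 3. Control 1 was again lowest and Control 2 highest. The log2 fold changes were -0.03 and -0.03 (adjusted p = 0.961 and 0.926).

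Col6a3 (chr1:90765923-90843971, minus strand), the longest chain, did not follow them, at 28.9, 29.3 and 21.0 FPKM in Control 1 to 3 and 33.5, 26.6 and 27.2 FPKM in TBZ 1 to 3. Here Control 3 was the lowest and TBZ 1 the highest. On the log2 scale TBZ minus Control was 0.14 (95% interval -0.15 to 0.43), and it was 0.00 without Control 3. Col12a1 (chr9:79598991-79718831, minus), a fibril-associated collagen of dense connective tissue, stood at 28.9, 22.6 and 16.5 FPKM in Control 1 to 3 and 29.6, 26.4 and 24.6 FPKM in TBZ 1 to 3. Control 3 was the lowest library and Control 1 nearly the highest. Its log2 fold change was 0.25 (95% interval -0.12 to 0.62, adjusted p = 0.674), and 0.07 without Control 3.

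The other 3 type VI chains were rare. Col6a4 stood at 0.702, 1.01 and 0.851 FPKM in Control 1 to 3 and 1.09, 1.03 and 1.44 FPKM in TBZ 1 to 3. Each TBZ library was above each control, TBZ 3 by the most. The log2 fold change of 0.47 ± 0.16 (95% interval 0.10 to 0.84, unadjusted p = 0.0178, adjusted p = 0.395) was the most positive among collagens, and it was 0.31 without TBZ 3. Col6a6 averaged 1.36 FPKM and Col6a5 0.101 FPKM, with log2 fold changes of 0.26 and -0.19 and adjusted p of 0.689 and 0.845. Both had groups that overlapped.

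Type IX collagen coats fibrils of cartilage and of the eye, and its 3 chains had positive log2 fold changes, although that of Col9a2 was -0.04 without TBZ 3. Col9a3 (chr2:180597790-180622189, plus strand) stood at 7.44, 7.02 and 7.90 FPKM in Control 1 to 3 and 8.27, 8.46 and 10.5 FPKM in TBZ 1 to 3. Every TBZ library exceeded every control, with TBZ 3 well above the rest. edgeR gave a log2 fold change of 0.28 ± 0.09 (unadjusted p = 0.0130, adjusted p = 0.359, and 0.0366 with no filter), and it was 0.17 without TBZ 3. Of its exonic bases, 6.07% are shared with Tcfl5 on the opposite strand, and the sources used here do not say whether counting used strand. Col9a1 stood at 2.61, 1.98 and 2.42 FPKM in Control 1 to 3 and 2.53, 3.01 and 3.38 FPKM in TBZ 1 to 3, with TBZ 1 inside the control range and the other TBZ libraries above it. On the log2 scale TBZ minus Control was 0.35 (unadjusted p = 0.0247, adjusted p = 0.434). Col9a2, the most abundant of the 3, averaged 22.6 FPKM with a log2 fold change of 0.06 (adjusted p = 0.858).

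Col7a1 (chr9:108953586-108984875, plus strand), the chain of the anchoring fibrils that tie epithelial basement membranes to the stroma, had the smallest p of all collagens by edgeR, while by DESeq2 the smallest was that of Col6a4. It stood at 6.84, 6.52 and 5.73 FPKM in Control 1 to 3 and 7.55, 6.998 and 7.47 FPKM in TBZ 1 to 3. The TBZ libraries were all above the controls, the gap between TBZ 2 and Control 1 being small. TBZ over Control came to a log2 fold change of 0.21 ± 0.07 (95% interval 0.06 to 0.36, unadjusted p = 0.0121, adjusted p = 0.349), and it was 0.14 without Control 3. The 8 general epithelial markers, none under 0.1 FPKM, summed to 805 to 900.3 FPKM in Control and 847 to 939.5 in TBZ. The 8 markers of pancreatic bud epithelium summed to 694 to 779 and 937 to 1054 FPKM, without overlap. The part of either list in the value of Col7a1 was not tested.

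The 4 transmembrane collagens, which are held in the cell membrane and can be shed from it, had log2 fold changes of -0.11 (Col13a1), -0.24 (Col23a1), -0.28 (Col25a1) and -0.48 (Col17a1). All were negative, with a median of -0.26, and 3 of 4 had an unadjusted p under 0.05 and lower values in TBZ, where 4.54% of tested genes did. The groups did not overlap for 2 of the 4, Col23a1 and Col17a1, where 7.13% of tested genes had groups apart and lower in TBZ. They did overlap for Col13a1 and for Col25a1, which averaged 0.965 FPKM. Col23a1 (chr11:51289920-51583918, plus strand) stood at 11.4, 11.7 and 12.55 FPKM in Control 1 to 3 and 8.75, 10.97 and 10.5 FPKM in TBZ 1 to 3. Every TBZ library was below every control, TBZ 1 the furthest. Its adjusted p was 0.389 by edgeR, 0.196 by DESeq2 and 0.0313 by edgeR with no filter, and the log2 fold change of -0.24 was -0.14 without TBZ 1.

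Col17a1, a component of the hemidesmosomes that hold epithelial cells to their basement membrane, was low, at 0.388, 0.385 and 0.509 FPKM in Control 1 to 3 and 0.283, 0.306 and 0.329 FPKM in TBZ 1 to 3, on 66 to 123 reads. The groups did not overlap and Control 3 was the highest library. The log2 fold change was -0.48 (95% interval -0.88 to -0.07, adjusted p = 0.435), and -0.34 without Control 3. Col20a1, a fibril-associated collagen, was similar at 0.319, 0.348 and 0.566 FPKM in Control 1 to 3 and 0.260, 0.267 and 0.249 FPKM in TBZ 1 to 3. The groups did not overlap, and again Control 3 was the highest. Its log2 fold change of -0.66 (95% interval -1.21 to -0.11, adjusted p = 0.432) was -0.36 without Control 3. Control 3 is the library with the highest sum of stomach and oesophagus markers. Of these Krt5, a keratin of stratified epithelium, stood at 0.194, 0.116 and 2.76 FPKM in Control 1 to 3 and 0.0563, 0.189 and 0.152 FPKM in TBZ 1 to 3, and was singled out after its values were seen. Not every marker was highest in Control 3: Barx1, a transcription factor gene that makes up most of the sum, stood at 77.7, 66.8 and 76.1 FPKM in Control 1 to 3 and 48.8, 75.5 and 53.0 FPKM in TBZ 1 to 3, and Gkn1 and Gkn2 were highest in TBZ 1 and TBZ 2. The 6 mesothelial markers also had their highest sum in Control 3, at 119 FPKM. Among them Krt19 stood at 51.4 FPKM in Control 3 and at 22.4 to 25.7 FPKM in the other libraries. Wt1 was highest in TBZ 2, at 25.6 FPKM against 25.3 in Control 3, and the rest of the 6 were highest in Control 3. The part of either kind of cell in the values of Col17a1 and Col20a1 was not tested.

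Col16a1, Col26a1, Col8a1 and Col8a2 averaged 17.9, 13.2, 11.02 and 9.55 FPKM, with log2 fold changes of -0.03, -0.02, 0.06 and -0.03. Col14a1, a fibril-associated chain, had -0.15 (unadjusted p = 0.0429, adjusted p = 0.496) at 7.83 FPKM, and -0.09 without Control 2. Col22a1, Col19a1 and Col28a1 averaged under 0.5 FPKM, with log2 fold changes of 0.07, 0.28 and 0.25, the last on 5 to 22 reads. Col10a1, the chain of hypertrophic cartilage, did not pass the filter on low counts, with 5, 0 and 4 reads in Control 1 to 3 and 0, 0 and 3 in TBZ 1 to 3. No difference was detectable at that depth.

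Across all 43 tested collagens 23 log2 fold changes were positive and 20 negative, with a median of 0.05 (0.00 over all tested genes) and a range from -0.89 to 0.47. The groups did not overlap in FPKM for 8 collagens (18.6%), where 15.4% of all tested genes had groups apart. TBZ was higher for Col9a3, Col7a1 and Col6a4 (3 of 43, where 8.28% of genes were in that direction) and lower for Col23a1, Col24a1, Col17a1, Col20a1 and Col4a3 (5 of 43, where 7.13% were). Of the 12 collagens with an unadjusted p under 0.05, 5 were higher in TBZ (5.08% of all genes) and 7 lower (4.54%). By class these were 1 of 11 fibrillar, 2 of 8 basement membrane and 9 of 24 other collagens. The others had a median of 0.02, with 12 positive and 12 negative. By the authors' deposited table, an adjusted p under 0.05 was reached by 0 collagens, and the lowest of these values was 0.160, for Col6a4. DESeq2 as run here also gave 0.160 for Col6a4, and each called 222 genes in all. The deposited result is thus not to be counted as separate from that of DESeq2.

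**Figure D4:**
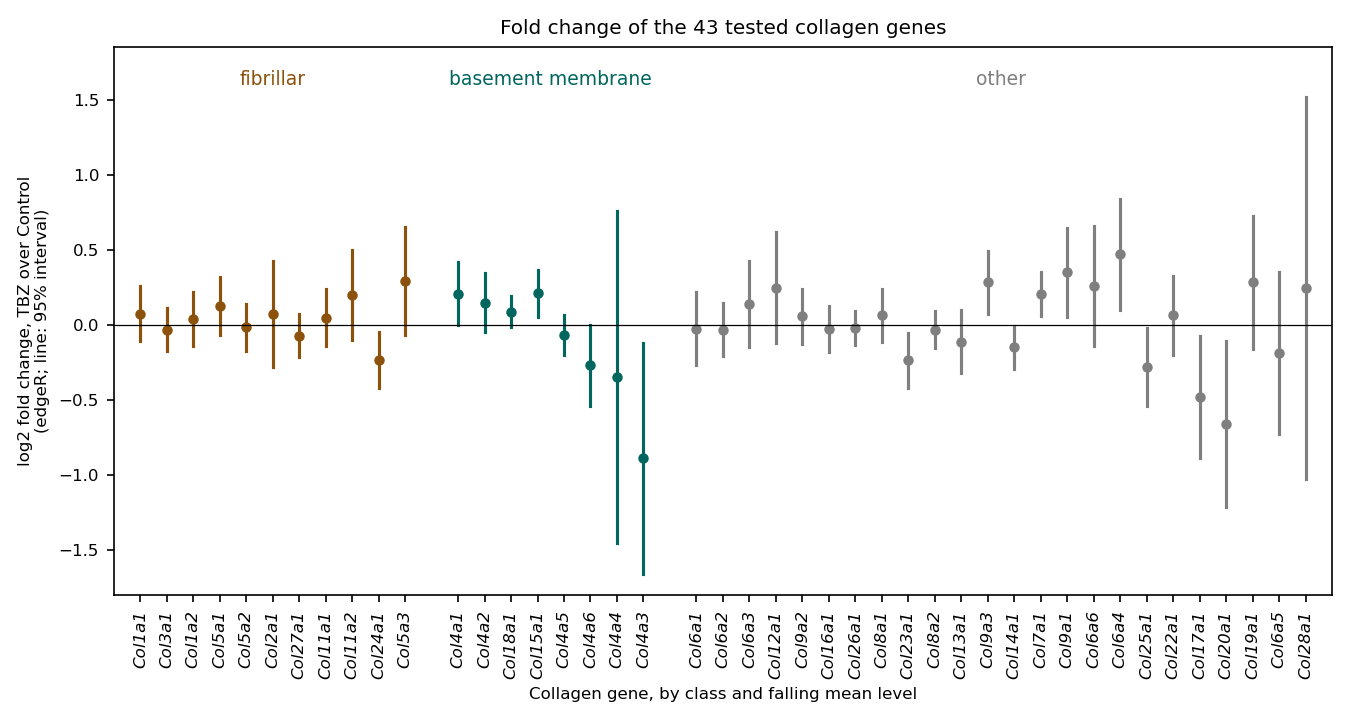
Log2 fold change of TBZ over Control from edgeR (y axis; points) with 95% intervals (lines) for the 43 tested collagens (x axis), by class and falling mean level; the horizontal line marks 0. Points stay between -0.89 (Col4a3) and 0.47 (Col6a4), and the intervals widen to the right of each class, where levels are low.

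Log2 fold changes were less precise for the rarer collagens. The 34 collagens with a mean of at least 1 FPKM had a median log2 fold change of 0.06 and a range from -0.27 to 0.47, and 8 of them (23.5%) had an unadjusted p under 0.05, where 10.4% of the 13354 tested genes at such levels did. The 9 tested below 1 FPKM had a median of -0.28, and their median SE was 0.24 against 0.08 for the 34. TBZ 1 was the highest library for 13 collagens (30.2%, beside 16.5% of all tested genes), and Control 3 the lowest for 12 (27.9%, beside 24.3%). TBZ 2 was the lowest library for 0 of the 43, beside 14.5% of all genes.

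Summed over the 44 genes, collagen FPKM was 1370.3, 1516 and 1343 FPKM in Control 1 to 3 and 1588, 1400.0 and 1427 FPKM in TBZ 1 to 3. TBZ 1 was the highest and Control 3 the lowest, and the other 4 libraries were mixed. Mesenchymal markers (8 genes, none under 0.1 FPKM) summed to 378 to 417 FPKM in Control and 370.0 to 423 in TBZ, also highest in TBZ 1. Vim alone averaged 229 FPKM and made up most of that sum. Of the 8 markers 3 had positive and 5 negative log2 fold changes, with a median of -0.08, and their part in the collagen values was not tested. Basement membrane FPKM was 304, 313 and 281 FPKM in Control 1 to 3 and 362, 311 and 324 FPKM in TBZ 1 to 3, with TBZ 2 just below Control 2. Per type, I and III together held 46.8 to 49.0% of collagen FPKM in Control and 46.0 to 48.0% in TBZ, type IV 14.5 to 16.1% and 15.8 to 17.1%, type V 8.99 to 9.97% and 9.53 to 9.77%, and type VI 8.19 to 9.44% and 8.28 to 9.10%. In each case the groups overlapped.

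**Figure D5:**
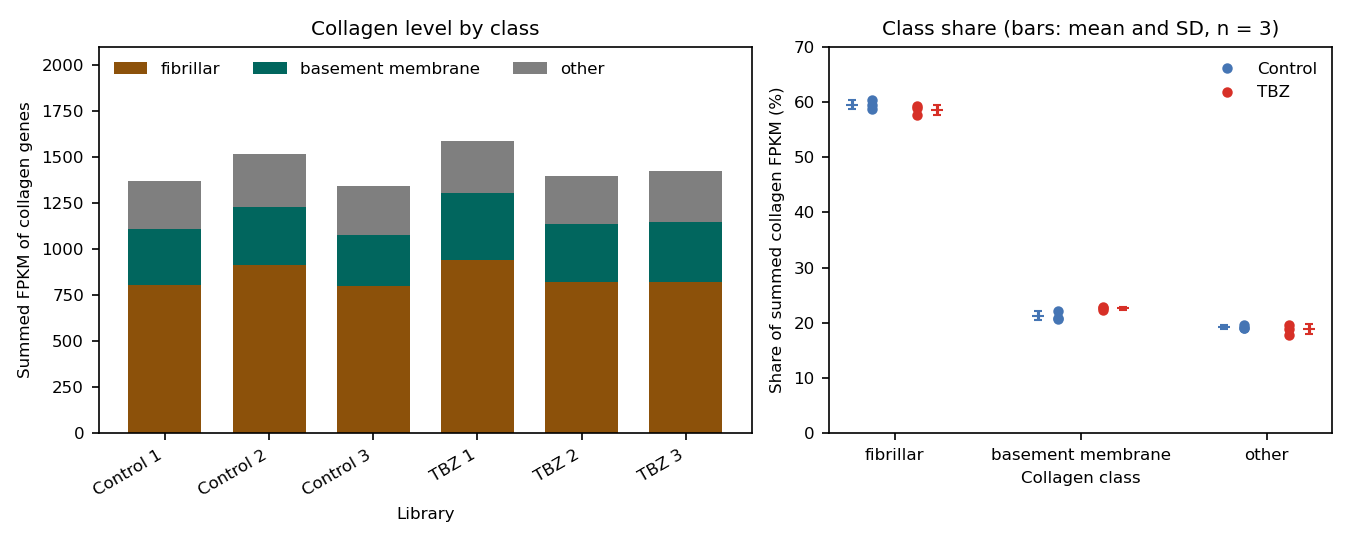
Left, summed FPKM (y axis, from 0) of fibrillar, basement membrane and other collagens in each library; right, the share of each class in percent, with 1 point per library and the mean and SD (n = 3) beside them. Fibrillar collagens are at 57.6 to 59.4% in TBZ and 58.8 to 60.4% in Control, and the basement membrane points lie at 20.6 to 22.2% in Control and 22.2 to 22.8% in TBZ.

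Genes that make, place and break down collagen were read from 6 lists of 89 genes, of which 85 were tested, Tll2, Comp, Timp4 and Gp6 being under the filter. By edgeR 0 of 85 passed (0.187% of all genes), and 8 had an unadjusted p under 0.05 (9.41%, beside 9.61%), 6 higher and 2 lower in TBZ. DESeq2 called 2 of 83, both higher in TBZ, where it called 1.43% of all genes. P4ha3, a catalytic chain of the enzyme that hydroxylates collagen prolines, stood at 6.69, 6.12 and 5.65 FPKM in Control 1 to 3 and 7.82, 7.70 and 8.11 FPKM in TBZ 1 to 3. Each TBZ library was above each control. edgeR gave a log2 fold change of 0.36 ± 0.07 (adjusted p = 0.124 by edgeR and 0.0105 by DESeq2). Smoc1, a calcium-binding protein of basement membranes, stood at 36.3, 33.4 and 32.1 FPKM in Control 1 to 3 and 41.3, 39.0 and 43.1 FPKM in TBZ 1 to 3. The groups were again apart, and the log2 fold change was 0.28 ± 0.06 (adjusted p = 0.124 by edgeR and 0.00422 by DESeq2). With no filter edgeR called 4 of 89, where it called 1.42% of all genes: P4ha3, Smoc1 and Hspg2 (log2 fold change 0.38) higher and Dcn (-0.29) lower. Without Control 3 the log2 fold changes of Hspg2 and Dcn, with the filter, were 0.17 and -0.12.

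Among 18 genes of collagen modification and folding 7 log2 fold changes were positive and 11 negative (median -0.01). P3h3, a prolyl 3-hydroxylase, had -0.20 (adjusted p = 0.334), and -0.13 without Control 3. Serpinh1, the collagen chaperone HSP47, was the most abundant at 588 FPKM with -0.01. Of 17 genes of secretion, cleavage and cross-linking 11 were positive (median 0.05, and -0.02 without TBZ 1), with Mia2, an export factor of the endoplasmic reticulum, at 0.14, Furin at 0.08 and Pxdn, the peroxidase that cross-links type IV, at 57.0 FPKM and 0.05. Of 11 tested partners of fibrils 6 were positive (median 0.01), with Aspn at -0.20 and Sparc, the most abundant at 384 FPKM, at -0.01. Of 14 basement membrane partners, laminins, nidogens and perlecan among them, 12 were positive and 2 negative, with a median of 0.11, where 50.1% of all tested genes were positive. Control 3 was the lowest library for 9 of the 14. Without it 11 were positive and 3 negative, with a median of 0.06. Lamc1, the most common laminin gamma chain, was the most abundant at 72.2 FPKM, with 0.17 (adjusted p = 0.554), and 0.09 without Control 3.

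Hspg2, which encodes perlecan, had the widest range of these partners as a ratio of highest to lowest, at 32.8, 21.9 and 16.5 FPKM in Control 1 to 3 and 30.7, 30.3 and 31.4 FPKM in TBZ 1 to 3. Control 3 was lowest and Control 1 highest, and the TBZ libraries were close together. Of 15 tested genes of collagen breakdown and its inhibitors 6 were positive and 9 negative (median -0.04). Mmp16, a membrane-bound metalloproteinase, had -0.25 (adjusted p = 0.228), Fap -0.23 (-0.14 without TBZ 1), and Mmp2, a gelatinase, stood at 103 FPKM with -0.04. Of 10 tested collagen receptors 5 were positive and 5 negative (median 0.00, and 0.10 without Control 2). Adgrg6, an adhesion receptor that binds type IV collagen, had 0.19 and Adgrg1, which binds type III, had 0.13, or 0.08 without TBZ 3 (adjusted p = 0.415 and 0.453), and Itgb1, the shared beta chain of the collagen integrins, stood at 230.2 FPKM with 0.04.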

How the data were processed

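Collagen genes were studied in 3 Control and 3 TBZ libraries of cultured mouse pancreatic buds. RNA was selected for poly-A and sequenced in read pairs, per the labels' protocols. STAR, HTSeq and the build mm10 are named in the submitters' processing notes, without versions, and strand use in counting is not given in the sources used here. The counts are raw reads per gene, per the file headers. FPKM values are the authors' own, scaled to the gene length given in the file and to library size. Levels, ranks and ratios of different genes therefore depend on that length. The signal columns are the authors' group means of scaled counts and were not used. The log2 fold changes and p-values of the deposited table are the authors' own, with no tool named.

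Genes were tested with edgeR 4.0.16 (R 4.3.3; TMM, filterByExpr, quasi-likelihood test, group only) over all 18226 genes that passed, with Benjamini-Hochberg adjustment, and called at an adjusted p under 0.05. The script was first tested on simulated data. SE was taken as the size of the log2 fold change divided by the root of the F statistic, and intervals are at 95%. Groups not overlapping were counted on FPKM. Collagens given per library were the 4 with the highest mean in each class, the 6 with the smallest p and the 3 with the largest log2 fold change each way. Partner chains outside these sets were given with them, Col4a4 per library and the others by their means. From each pathway list the 2 with the smallest p and the most abundant were named. The other genes named were chosen after their values were seen. Members, classes and lists were chosen with earlier results of these data known. Exons come from GENCODE M21 and promoters from RefSeq (GRCm38.p6). Alternatives were DESeq2 1.42.0, RLE scaling, dropping the filter, a replicate block, limma 3.58.1 on log2(FPKM + 0.5) or log2(FPKM + 0.1), leaving out each library, and other class borders. Leaving out each library for the pathway lists was added after the data were seen.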

Additional observations from a re-analysis of the deposited data

How the results depend on the processing

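The count of collagens called was 0 under DESeq2, RLE scaling, limma and without any 1 library, and 3 with no filter on low counts (Col15a1 and Col9a3 higher, Col23a1 lower in TBZ). In the whole table the number of genes called was 34, 222 by DESeq2, 445 with no filter, 3 by limma with either pseudocount and 0 by limma with no filter, and 5 to 36 when 1 library was left out (5 without TBZ 3, 11 without TBZ 1, 13 without Control 2). Of the genes of collagen handling 0 were called, 2 by DESeq2, 4 with no filter, and 0 to 1 when 1 library was left out (1 without Control 1). The cause of these differences was not tested. The replicate number as a block gave 0 collagens and 5 genes in all. The labels do not say whether libraries of the same number were made together. Deviations of same-numbered libraries from their group means correlated at -0.01, -0.18 and -0.08, and no library correlated best with its own number. With 3 libraries per group such values cannot exclude a pairing. The median log2 fold change of basement membrane collagens was 0.011, 0.088 by limma on log2(FPKM + 0.5) and 0.088 on log2(FPKM + 0.1), -0.022 to 0.076 when 1 library was left out, and -0.17 for type IV alone. Both limma medians leave out Col4a3, whose mean of 0.0379 FPKM was under the limma filter of 0.1. They therefore differ from the first value in their genes as well as in method. Of the 43 collagens, 28 kept the sign of their log2 fold change in all alternatives that gave a value (at most 13), and 15 did not, Col1a1, Col3a1, Col1a2 and Col4a4 among them. Depth limits chains on few reads, Col10a1, Col28a1, Col4a3 and Col4a4 among them, and 3 libraries per group limit the rest.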
